A study of Mus musculus with 35 samples.

Results

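RNA of 9 genes that make, regulate or relay nitric oxide (NO) was measured in whole mouse lungs. The genes were taken by name: the NO synthases Nos3, Nos1 and Nos2, the synthase-binding proteins Nosip and Nostrin, the dimethylarginine hydrolases Ddah1 and Ddah2, the phosphodiesterase Pde5a and the cyclic GMP (cGMP)-dependent kinase Prkg1. All 9 were found among the 54532 genes counted. Control mice were B6/129SJ2 wild types. Cav1-KO mice carried the allele labelled Cav1(tm1Mls/)J, which the study writes as Cav1tm1Mls/J, a knockout of caveolin-1 in every cell. Cav1-RC mice were that knockout with caveolin-1 put back in the endothelium. All mice were adults of at least 3 months, and females and males of each genotype spent 6 weeks in room air (normoxia) or at 10% oxygen (hypoxia). This gave 12 groups and 34 libraries, 1 mouse each, with 3 mice per group, or 2 in the normoxic female groups of Cav1-KO and Cav1-RC. The sources used here do not give the promoter or the sequence of the reconstituted Cav1. By design Cav1-RC lungs lack caveolin-1 outside the endothelium, so they differ from Control there and from Cav1-KO in the endothelium.

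NO is made from arginine by the synthases. In vessels the main source is the endothelial synthase encoded by Nos3, which caveolin-1 binds and holds inactive. NO activates guanylyl cyclase in smooth muscle, and the cGMP it makes activates the kinase encoded by Prkg1, which relaxes the vessel wall, until Pde5a breaks the cGMP down. Asymmetric dimethylarginine, an inhibitor of all synthases, is cleared by Ddah1 and Ddah2. The comparisons ask how these RNAs differ between genotypes with and without caveolin-1 and between oxygen levels.

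Cav1 itself was at 284 to 394 FPKM (fragments per kilobase of transcript, scaled by 1 factor per library) in the 12 Control libraries, at 0.461 to 1.13 in the 11 Cav1-KO libraries and at 0.423 to 1.89 in the 11 Cav1-RC libraries. The deletion label thus held in every library, while counted Cav1 was not called between Cav1-RC and Cav1-KO (log2 fold change -0.11, Padj 0.841 in normoxia and 0.44, Padj 0.252 in hypoxia), so the count does not check the Cav1-RC label. Libraries held 12425535 to 33343006 counts (median 18015172.5). In 4 libraries Xist or 4 genes of the Y chromosome went against the labelled sex (male Control hypoxia replicate 2, female Cav1-KO hypoxia replicate 2 and male Cav1-RC normoxia replicates 1 and 2). Those labelled male had Xist at 749 to 866 CPM (scaled counts) and Y genes at 0 to 1.10. The one labelled female had Xist at 710 CPM and Y genes at 17.4, against 182 to 340 in the other males. The mice of 12 libraries also appear on the source list of the western blots of the study, called listed here. They are all 3 of male Control hypoxia and of either sex of Cav1-KO hypoxia, and replicate 1 of 3 female groups, namely Control at either oxygen level and Cav1-RC in normoxia. Within groups, 45.8% of all genes differed between listed and unlisted libraries, and all 9 NO genes did. Only 3 groups, all female, held both kinds, so this difference, and every value with the list as a term, rests on 3 listed libraries against the 5 unlisted ones of the same groups, and no male or Cav1-KO group bears on it. The median difference was 0.26 (log2) over the 5219 shortest protein-coding genes and -0.25 over the 5218 longest. Cav1-KO hypoxia was listed throughout, and Cav1-KO normoxia and Cav1-RC hypoxia not at all, so between these groups list status and condition coincide and cannot be told apart. The main results on the NO genes are therefore also given within 1 list status, or with the list as a term in a fit of all 34 libraries. Padj is the adjusted p of edgeR's quasi-likelihood test over all genes tested (Benjamini-Hochberg), a gene was called at Padj under 0.05, and fold changes are log2 with standard error (SE), averaged over the sexes unless a sex is named.

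The 3 synthases are separate genes with related catalytic domains, and a stretch of 27 bases from this domain is shown. It was picked because it codes for a shared protein pattern in all 3, so it does not show how far the whole RNAs differ. Capitals mark bases unlike those of Nos3. It lies in exon 8 of 26 of Nos3 (mm10, chr5:24370106-24370132), exon 10 of 27 of Nos2 (chr11:78940064-78940090) and exon 10 of 29 of Nos1 (chr5:117905396-117905422), all on the plus strand.
Nos3: tttcctgctgcccctttcagcggctgg
Nos2: ttCccAgcCTGcccCttcaATggTtgg
Nos1: ttCAGCgcCTGTccCttTagTggctgg
Nos2 differed from Nos3 at 9 of these bases and Nos1 at 11.

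Nos3 (chr5:24364810-24384474, plus strand) was lowest in Control lungs in normoxia and highest in Cav1-KO lungs in hypoxia. In Control normoxia it was at 6.24, 5.27 and 4.83 FPKM in females and at 5.03, 5.89 and 6.67 in males. In Cav1-KO normoxia it was at 11.1 and 10.4 FPKM in females and at 10.2, 9.37 and 10.6 in males. Every normoxic Cav1-KO library was thus above every normoxic Control library. In Cav1-RC normoxia Nos3 was at 13.6 and 7.89 FPKM in females and at 6.83, 7.57 and 9.71 in males. The highest of these 5, female replicate 1, was the single listed one, and the lowest lay just above the highest Control value. In Control hypoxia Nos3 was at 13.3, 7.35 and 7.47 FPKM in females and at 16.7, 12.6 and 16.3 in males. The 2 unlisted libraries were the low ones, and all 6 were above the 6 of Control normoxia. In Cav1-KO hypoxia it was at 21.7, 26.6 and 23.0 FPKM in females and at 29.3, 24.6 and 22.5 in males, above every other assigned library. In Cav1-RC hypoxia it was at 12.3, 11.9 and 11.5 FPKM in females and at 13.0, 13.3 and 12.6 in males, a narrow range. In the order of the 12 group means, 3 of the 11 neighbouring pairs did not overlap: female Cav1-KO hypoxia above male Control hypoxia, male above female Cav1-RC hypoxia, and male Cav1-RC above male Control normoxia.

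**Figure D1:**
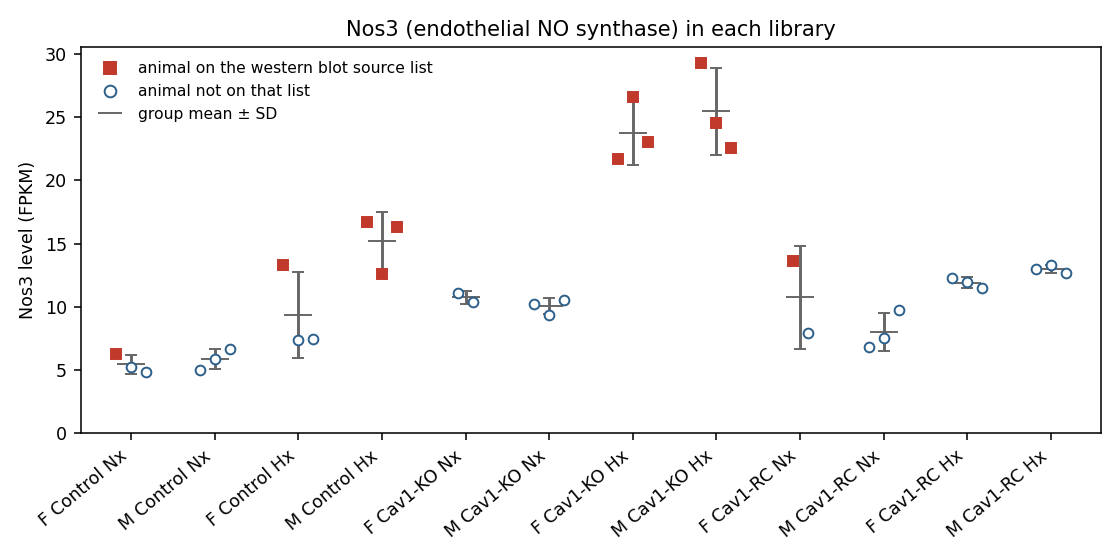
Nos3 level (FPKM, linear axis) in each of the 34 libraries by group, where F and M are female and male, Nx is normoxia and Hx is hypoxia, with the group mean and SD as bars. Filled squares are mice on the western blot source list and open circles are the others; the 6 hypoxic Cav1-KO libraries, at 21.7 to 29.3, stand above all the rest.

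In normoxia Nos3 was higher in Cav1-KO than in Control by 0.87 (SE 0.10, Padj 0.000571), and by 0.94 (SE 0.09, Padj 0.00014) among unlisted libraries alone. It was higher in Cav1-RC than in Control by 0.72 (SE 0.17, Padj 0.0412). That call stood in 2 of the 11 fits that left out 1 library (without female Control normoxia replicate 1 or female Cav1-RC normoxia replicate 2) and ended in the other 9, at 0.48 to 0.77, the lowest without female Cav1-RC normoxia replicate 1. It was not reached among unlisted libraries (0.55, Padj 0.0594). Between Cav1-RC and Cav1-KO normoxia Nos3 was not called over all libraries (-0.16, SE 0.15, Padj 0.556). Among unlisted libraries, that is without female Cav1-RC normoxia replicate 1, Nos3 was lower in Cav1-RC by 0.39 on the log2 scale (value -0.39, SE 0.11, Padj 0.0324). Whole-lung RNA does not tell fewer or more endothelial cells from less or more Nos3 RNA per cell, here or for the other genes.

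In hypoxia Nos3 was higher in Cav1-KO than in Control by 1.03 (SE 0.15, Padj 0.00317), and by 0.78 (SE 0.13, Padj 0.0151) among listed libraries alone. Between Cav1-RC and Control hypoxia Nos3 was not called over all libraries (0.05, SE 0.15, Padj 0.857). With the list as a term the difference was 0.52 (SE 0.13, Padj 0.015), and between the unlisted females alone 0.72 (SE 0.13, Padj 0.0507). Nos3 was lower in Cav1-RC than in Cav1-KO hypoxia (-0.99, SE 0.08, Padj 4.11e-06), with no overlap between the 6 and 6 libraries. All 6 Cav1-KO libraries were listed and no Cav1-RC library was, and with the list as a term the difference was -0.33 (SE 0.16, Padj 0.191).

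Hypoxia against normoxia gave a rise of Nos3 in Control of 1.09 (SE 0.17, Padj 0.00679) and in Cav1-KO of 1.23 (SE 0.08, Padj 5.44e-07). In Control the rise was 0.52 (SE 0.13, Padj 0.0391) among the 4 unlisted female libraries and 0.73 (SE 0.12, Padj 0.00021) with the list as a term. In Cav1-KO, where the list and the oxygen level coincide, the list term left 0.60 (SE 0.16, Padj 0.0528). In Cav1-RC the difference was 0.41 (SE 0.14, Padj 0.189) over all libraries. Without the single listed library, Nos3 rose in Cav1-RC by 0.65 (SE 0.11, Padj 0.0167). Within groups, listed libraries held more Nos3 than unlisted ones by 0.66 (SE 0.12, Padj 0.000112).

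**Figure D2:**
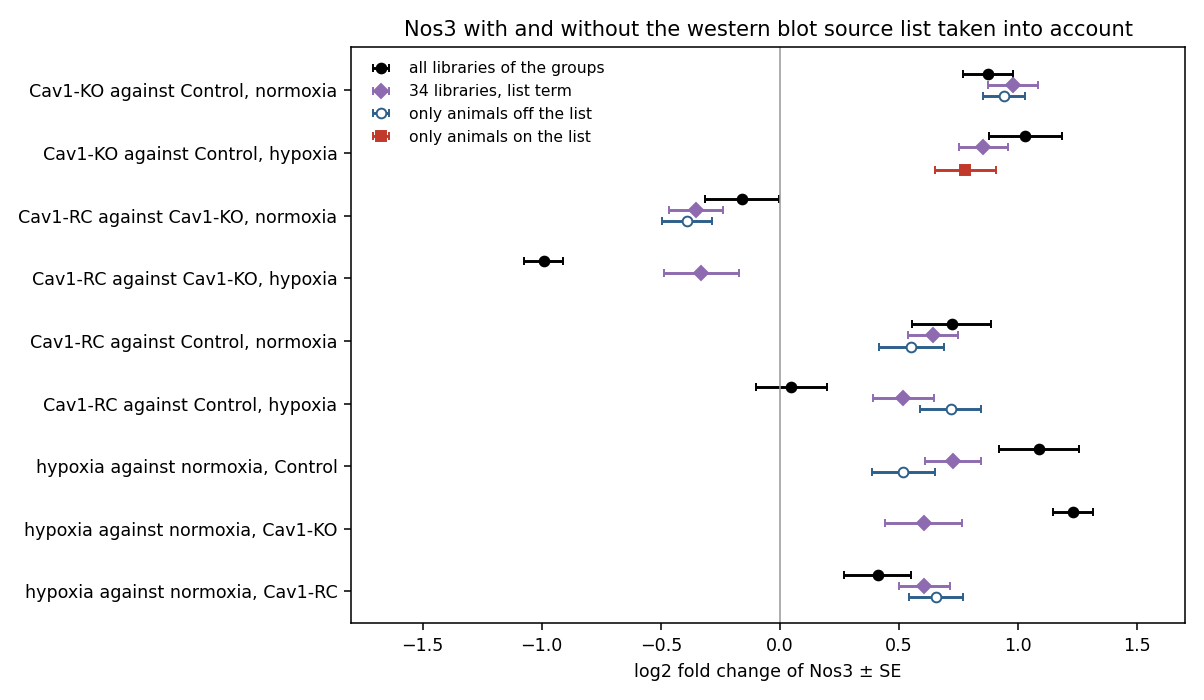
Nos3 differences (log2 fold change with SE) for the 9 sex-averaged comparisons, over all libraries, within 1 western blot list status, and with the list as a term. The difference of Cav1-KO from Control in normoxia, 0.87, 0.94 and 0.98, keeps its size, while that of Cav1-RC from Cav1-KO in hypoxia shrinks from -0.99 to -0.33.

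Nos3 was also set against 15 endothelial markers (Pecam1, Cdh5, Tek and others) in the same library, as log2 CPM (counts scaled to the library's total) of Nos3 minus the mean log2 CPM of the markers. All 15 were detected, with a summed level of 5461 to 8049 CPM in the 34 libraries, and Cldn5, an endothelial tight junction gene, was the most abundant at 264 to 672 FPKM. The difference ranged from -4.22 to -3.46 in the 6 Control normoxia libraries and from -2.11 to -1.64 in the 6 Cav1-KO hypoxia libraries. Nos3 thus stood nearer to the markers in every hypoxic Cav1-KO library than in any normoxic Control library. Relative to the markers, Nos3 was higher in Cav1-KO than in Control by 0.73 in normoxia and by 1.02 in hypoxia, and lower in Cav1-RC than in Cav1-KO hypoxia (-0.84). It was higher in hypoxia than in normoxia by 0.94 in Control and by 1.23 in Cav1-KO. Each of these 5 had p = 0.005 in a two-sided exact permutation within sex, the smallest that test can give, and 0.009 adjusted over the 9 comparisons. Cav1-RC was above Control in normoxia by 0.67 (exact permutation p = 0.01, adjusted 0.015). That call ended in 4 of the 11 tests without 1 library, without female Control normoxia replicate 1 (0.72), 2 (0.68) or 3 (0.60) or female Cav1-RC normoxia replicate 1 (0.39). The rest did not pass: Cav1-RC from Control in hypoxia was 0.18, from Cav1-KO in normoxia -0.07, and hypoxia from normoxia in Cav1-RC 0.45 (exact permutation p = 0.08, adjusted 0.103). Among unlisted libraries this last difference was 0.73 (exact permutation p = 0.0125, adjusted 0.0333), and that of Cav1-KO from Control in normoxia was 0.79. Cav1-RC among unlisted libraries in normoxia was above Control by 0.44 (exact permutation p = 0.0333, adjusted 0.0444) and from Cav1-KO it was -0.35 (exact permutation p = 0.05). Among listed libraries Cav1-KO was above Control in hypoxia by 0.69 (exact permutation p = 0.0125, the smallest that test can give). Between unlisted females, Cav1-RC from Control in hypoxia was 0.85 and hypoxia from normoxia in Control 0.49, in tests whose exact permutation p cannot fall below 0.1 and 0.333. No value at equal list status can be had for -0.84 and 1.23. With 3 markers (Pecam1, Cdh5 and Tie1) in place of 15, the differences of Cav1-KO and of Cav1-RC from Control in normoxia fell to 0.44 and 0.54, that of hypoxia in Control to 0.80, and none of these 3 was called.

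**Figure D3:**
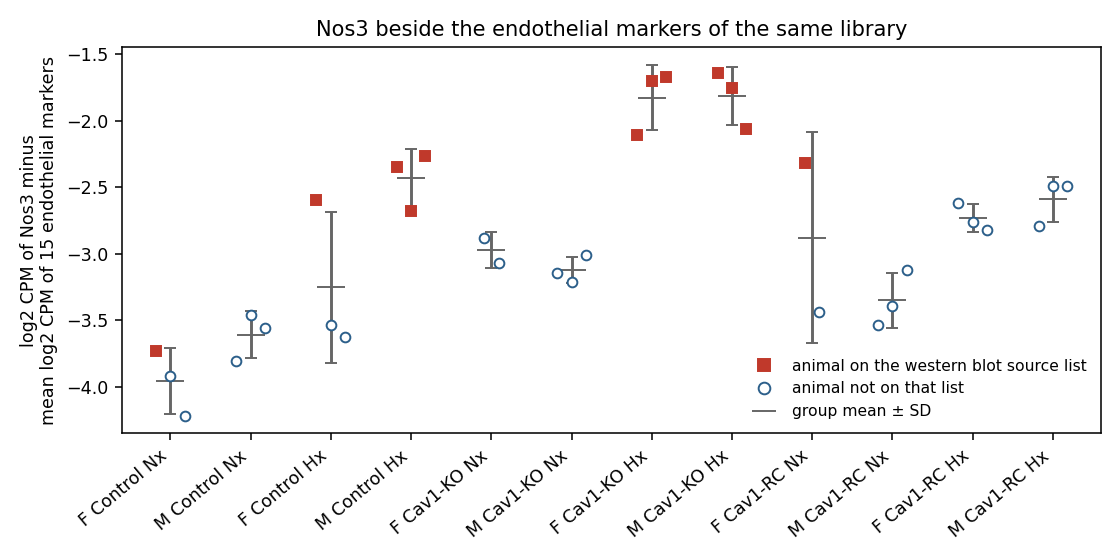
Nos3 minus the mean of 15 endothelial markers (log2 CPM) in each library by group, where F and M are female and male, Nx is normoxia and Hx is hypoxia; filled squares are listed mice and open circles the others. Values run from -4.22 in Control normoxia to -1.64 in Cav1-KO hypoxia.

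The genes whose log2 CPM followed Nos3 most closely over the 34 libraries, of 19869 ranked, were Pkn3, a kinase of the protein kinase C-related family (Pearson's r 0.954, Spearman's rho 0.935), and Grrp1 (0.947 and 0.935). Timeless, a gene of the DNA replication fork, had 0.919 and 0.916, the metalloprotease gene Adam15 had 0.910 and 0.893, and Gm35167 had 0.888 and 0.867. These are descriptions over libraries that share genotype, oxygen level and list status. Among the 22 unlisted libraries r was 0.914 for Pkn3, 0.911 for Grrp1, 0.874 for Timeless, 0.841 for Adam15 and 0.751 for Gm35167. Of the other NO genes, Ddah2 came closest over the 34 libraries, with r 0.77, but not over the 22 unlisted ones, where it had 0.41 and Nos2 0.43. Those that ran the other way were Prkg1 with -0.67 and -0.23, Pde5a with -0.56 and -0.42, and Ddah1 with -0.51 and -0.18, over the 34 and the 22 in turn, and Nos1 with -0.27 over the 34 alone (0.20 over the 22).

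Nos2 (chr11:78920787-78960254, plus strand), the inducible synthase of macrophages and other activated cells, was at 1.19 to 7.09 FPKM in the 34 libraries. In Control normoxia it was at 1.33, 1.26 and 2.43 FPKM in females and at 1.19, 1.57 and 2.44 in males. In Control hypoxia it was at 3.12, 5.76 and 7.09 in females and at 2.89, 4.0 and 2.37 in males. Both unlisted females were above every other library, and the groups overlapped only at male replicate 3. Nos2 rose in hypoxia in Control by 1.25 (SE 0.26, Padj 0.0387), by 1.76 (SE 0.29, Padj 0.0112) between unlisted females and by 1.66 (SE 0.27, Padj 0.00021) with the list as a term. Leaving out 1 library ended the call over all libraries in 8 of 12 fits, at 1.12 to 1.33, and kept it only without female Control normoxia replicates 1 or 3, male Control normoxia replicate 3 or female Control hypoxia replicate 1. In Cav1-KO normoxia Nos2 was at 2.32 and 4.13 FPKM in females and at 3.82, 3.69 and 2.74 in males. It was higher there than in Control normoxia by 0.96 (SE 0.25, Padj 0.0292) and by 0.89 (Padj 0.0387) among unlisted libraries. It was not called without female Control normoxia replicate 2, male Control normoxia replicate 2, female Cav1-KO normoxia replicate 2 or male Cav1-KO normoxia replicates 1 or 2 (0.73 to 0.93). The macrophage list (8 genes, led by Chil3) ran from 287 to 3964 CPM summed over the libraries. Its median difference was 0.33 in Cav1-KO against Control normoxia and 0.49 in Control hypoxia against normoxia, with 1 and 0 of its 8 genes called, beside 13.2% and 1.44% of all genes. The list term gave 0 of 8, beside 3001 of 18540 genes called, and 4 of 8, beside 3700 of 18561, with a median of 1.03 in the second. Its part in the Nos2 differences was not tested. In Cav1-KO hypoxia Nos2 lay between 2.69 and 4.57 FPKM, a difference of 0.18 (SE 0.19, Padj 0.426) from normoxia, and in Cav1-RC hypoxia between 2.00 and 4.82, a difference of 0.76 (SE 0.28, Padj 0.218). Without 1 library the latter ran from 0.53, among unlisted libraries, to 1.18 and was called in 1 of 11 fits, at 1.18 (Padj 0.0456) without female Cav1-RC normoxia replicate 2. Between Cav1-RC and Cav1-KO normoxia Nos2 was not called over all libraries (-0.70, SE 0.29, Padj 0.166) or among unlisted ones (-0.44, Padj 0.271), and in 1 of 10 fits without 1 library it was, at -1.09 (Padj 0.00556) without the same replicate 2, which leaves only a listed female.

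Nos1 (chr5:117781032-117958840, plus strand), the neuronal synthase, was close to the limit of detection, with at most 20 counts and 0.112 FPKM in any library and 0 counts in female Control hypoxia replicate 1. A count of 0 allows up to 3 counts, for counting error alone. It passed the low-count filter in 7 of the 9 sex-averaged comparisons. In Cav1-RC hypoxia it had 5, 7 and 20 counts in females and 20, 7 and 15 in males, and in Cav1-KO hypoxia 4, 10 and 12 in females and 3, 1 and 3 in males. The groups overlapped. The difference, 1.75 (SE 0.40, Padj 0.00295), turned to -0.42 (SE 0.84, Padj 0.803) with the list as a term. Nos1 was lower in listed libraries within groups (-2.15, SE 0.70, Padj 0.0137).

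Nosip (chr7:45062429-45078210, plus strand) binds the endothelial synthase and draws it off the cell membrane. It was at 15.2 to 28.2 FPKM in the 34 libraries. In Cav1-KO normoxia it was at 18.3 and 17.3 FPKM in females and at 17.6, 18.5 and 17.3 in males, and in Cav1-KO hypoxia at 26.7, 22.4 and 18.9 in females and at 25.1, 22.5 and 23.7 in males. All 6 hypoxic libraries were above the 5 normoxic ones. The difference was 0.37 (SE 0.08, Padj 0.00184), and 0.05 (SE 0.15, Padj 0.924) with the list as a term. Listed libraries held more Nosip by 0.36 (SE 0.12, Padj 0.0144). In the other 8 sex-averaged comparisons Nosip was not called. The span of Prrg2 overlaps that of Nosip on the opposite strand, at a median of 11.1 FPKM. The counting used default settings that ignore strand, and whether exons of the 2 genes overlap was not tested.

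Nostrin (chr2:69135800-69189330, plus strand), which carries the endothelial synthase from the membrane into vesicles, was at 20.95 to 52.2 FPKM. It was called in none of the 9 sex-averaged comparisons over all libraries by edgeR, with unadjusted p of 0.00863 for Cav1-KO against Control normoxia (0.46, SE 0.14, Padj 0.0588) and 0.0253 for hypoxia in Control (0.40, SE 0.16, Padj 0.272). In male Control normoxia it was at 25.9, 22.8 and 31.0 FPKM and in male Cav1-KO normoxia at 46.1, 41.1 and 37.5. These males did not overlap, and Nostrin was higher in the knockout by 0.64 (SE 0.13, Padj 0.0201). Among unlisted libraries Nostrin was higher in Cav1-RC than in Control normoxia by 0.67 (SE 0.15, Padj 0.0424).

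Ddah1 (chr3:145758675-145894277, plus strand) clears the inhibitor dimethylarginine, and its RNA was higher in Cav1-KO than in Control in normoxia and not called in hypoxia (-0.31, SE 0.19, Padj 0.25). In Control normoxia it was at 6.14, 5.12 and 8.64 FPKM in females and at 6.08, 4.20 and 5.68 in males. In Cav1-KO normoxia it was at 10.3 and 8.81 in females and at 8.88, 10.8 and 9.64 in males. Every Cav1-KO value was above every Control value, the nearest being 8.81 and 8.64. The difference was 0.70 (SE 0.15, Padj 0.0121), and 0.68 (SE 0.15, Padj 0.0145) among unlisted libraries. Without female Cav1-KO normoxia replicate 1 it was 0.65 (Padj 0.069). In Cav1-RC normoxia Ddah1 was at 4.21 and 8.38 FPKM in females and at 8.25, 7.37 and 5.54 in males, all below Cav1-KO. This difference missed the threshold over both sexes (-0.54, SE 0.18, Padj 0.0936) and passed it in males (-0.46, SE 0.13, Padj 0.0436). Without 1 library it ran from -0.82 to -0.33 and was called in 1 of 10 fits. The first value (Padj 0.000436) was without female Cav1-RC normoxia replicate 2, the highest of the 5, which left the listed replicate 1 as the single female. The second (Padj 0.103) was among unlisted libraries, without that replicate 1.

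In hypoxia Ddah1 was at 5.05, 4.40 and 3.48 FPKM in female Cav1-KO lungs and at 3.31, 5.87 and 3.40 in males, below every normoxic Cav1-KO value. It fell in Cav1-KO by 1.21 on the log2 scale (SE 0.15, Padj 3.46e-05). With the list as a term, which here coincides with the oxygen level, the difference was -0.58 (SE 0.25, Padj 0.258). In Cav1-RC hypoxia, unlisted throughout, it was at 5.01, 4.95 and 4.48 FPKM in females and at 5.06, 3.81 and 3.36 in males. The difference from Cav1-RC normoxia was -0.60 (SE 0.18, Padj 0.13) over all libraries. Among unlisted libraries Ddah1 fell in Cav1-RC by 0.79 on the log2 scale (SE 0.15, Padj 0.025). In Control the difference was -0.18 (SE 0.18, Padj 0.755). A ribosomal pseudogene, Rpl36a-ps2, overlaps the span of Ddah1 on its own strand, at a median of 46.1 FPKM. Whether it meets an exon of Ddah1 was not tested.

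Ddah2 (chr17:35059035-35062095, plus strand), the other dimethylarginine hydrolase, was at 32.8 to 102 FPKM. In Cav1-KO normoxia it was at 53.3 and 58.7 FPKM in females and at 66.2, 61.0 and 64.1 in males. In Cav1-KO hypoxia it was at 93.5, 78.7 and 76.0 in females and at 102, 85.0 and 89.4 in males. In Cav1-RC hypoxia it was at 44.2, 52.3 and 48.2 in females and at 50.7, 45.9 and 42.2 in males. The hypoxic Cav1-KO libraries were above both other sets. Ddah2 rose with hypoxia in Cav1-KO by 0.54 (SE 0.07, Padj 6.14e-05) and was lower in Cav1-RC than in Cav1-KO hypoxia (-0.89, SE 0.09, Padj 1.1e-05). With the list as a term these were 0.00 (SE 0.14, Padj 0.995) and -0.33 (SE 0.14, Padj 0.14). Listed libraries, at 64.6 to 102 FPKM, overlapped unlisted ones, at 32.8 to 66.2, only at 64.6 to 66.2.

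In Control hypoxia Ddah2 was at 71.0, 45.1 and 52.2 FPKM in females and at 79.3, 73.8 and 80.0 in males, and the 2 unlisted females fell within the range of Cav1-RC hypoxia. Over all libraries Ddah2 was higher in Cav1-KO than in Control hypoxia by 0.39 (SE 0.11, Padj 0.0396), and lower in Cav1-RC than in Control hypoxia (-0.49, SE 0.11, Padj 0.0243). Leaving out 1 library ended the first call in 10 of 12 fits (0.31 to 0.42; it stood without female Control hypoxia replicate 1 or male Cav1-KO hypoxia replicate 2). It ended the second call in 5, without male Control hypoxia replicates 1 or 3, female Cav1-RC hypoxia replicate 1 or male Cav1-RC hypoxia replicates 2 or 3 (-0.49 to -0.46). Among listed libraries the first difference was 0.22 (SE 0.10, Padj 0.257), and among unlisted females the second was 0.02 (SE 0.14, Padj 0.951). In Control normoxia Ddah2 was at 74.1, 49.98 and 42.8 FPKM in females, the first of them listed, and at 32.8, 42.1 and 51.3 in males. Among unlisted libraries it was higher in Cav1-KO than in Control normoxia by 0.44 (SE 0.11, Padj 0.0238). Among unlisted libraries it was also lower in Cav1-RC than in Cav1-KO normoxia (-0.30, SE 0.06, Padj 0.0047). Over all libraries these 2 were not called (0.30, Padj 0.211 and -0.20, Padj 0.192).

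Pde5a (chr3:122728947-122859374, plus strand), which hydrolyses cGMP and is the target of sildenafil, fell in hypoxia in Cav1-RC lungs. In Cav1-RC normoxia it was at 17.8 and 33.5 FPKM in females and at 28.9, 28.8 and 29.6 in males. In Cav1-RC hypoxia it was at 15.1, 15.2 and 17.4 in females and at 18.7, 10.9 and 13.2 in males. The listed female was the single normoxic value within the hypoxic range. The fall was 0.87 on the log2 scale (value -0.87, SE 0.17, Padj 0.0264). Among unlisted libraries it was -1.04 (SE 0.14, Padj 0.00656), and with the list as a term -1.03 (SE 0.14, Padj 4.99e-05). It was not called without any 1 of the 3 male Cav1-RC normoxia libraries, female Cav1-RC hypoxia replicate 2 or male Cav1-RC hypoxia replicates 2 or 3 (-0.87 to -0.79). In Cav1-KO normoxia Pde5a was at 21.6 and 32.2 FPKM in females and at 32.4, 28.3 and 28.4 in males, and in Cav1-KO hypoxia at 12.6 to 17.8 in both sexes, with no overlap. That difference, -0.85 (SE 0.11, Padj 4.73e-05), was -0.02 (SE 0.21, Padj 0.973) with the list as a term. In Control, hypoxia and normoxia differed by -0.19 (SE 0.20, Padj 0.776) over all libraries and by 0.05 (SE 0.21, Padj 0.893) between unlisted females. Pde5a was lower in Cav1-RC than in Control hypoxia with the list as a term (-0.86, SE 0.17, Padj 0.00207), and not called over all libraries (-0.35, SE 0.16, Padj 0.183).

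Ddah1 and Pde5a are the 2 genes that were lower in hypoxia in Cav1-RC among unlisted libraries, and the 250 bases at their starts are shown because of this (RefSeq, GRCm38, plus strand, 5′ to 3′). Ddah1 is at chr3:145758442-145758691 and Pde5a at chr3:122728908-122729157. Capitals mark ACGTG or GCGTG on either strand, the letters that hypoxia-inducible factors are known to bind.
Ddah1: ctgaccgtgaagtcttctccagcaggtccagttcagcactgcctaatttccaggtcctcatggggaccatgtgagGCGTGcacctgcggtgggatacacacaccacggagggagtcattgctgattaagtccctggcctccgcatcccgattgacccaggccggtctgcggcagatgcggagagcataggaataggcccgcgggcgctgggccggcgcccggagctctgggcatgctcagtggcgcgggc
Pde5a: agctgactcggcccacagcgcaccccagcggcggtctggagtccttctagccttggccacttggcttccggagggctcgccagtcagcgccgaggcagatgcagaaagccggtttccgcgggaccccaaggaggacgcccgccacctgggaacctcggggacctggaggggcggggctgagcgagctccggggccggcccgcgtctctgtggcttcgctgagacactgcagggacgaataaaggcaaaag
Ddah1 held 1 such match and Pde5a held none. Of the 8 promoters of 7 of these genes, 2 (Ddah1 and Nosip) held a match, against 38.6% of all 32851 promoters of this length.

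Prkg1 (chr19:30567551-31765033, minus strand), the kinase through which cGMP relaxes smooth muscle, was lower in every listed library than in any unlisted one. Listed libraries were at 0.164 to 0.655 FPKM and unlisted ones at 0.866 to 2.74, with no overlap. Within groups the difference was -2.67 (SE 0.35, Padj 3.33e-06). In Cav1-KO normoxia Prkg1 was at 2.06 and 2.68 FPKM in females and at 2.67, 2.39 and 2.31 in males, and in Cav1-KO hypoxia at 0.316, 0.338 and 0.346 in females and at 0.164, 0.455 and 0.348 in males. In Cav1-RC hypoxia it was at 1.04, 0.941 and 1.68 in females and at 1.53, 1.53 and 1.07 in males. Hypoxia against normoxia in Cav1-KO gave -2.90 (SE 0.20, Padj 5.18e-07) over all libraries and -0.20 (SE 0.43, Padj 0.871) with the list as a term. Cav1-RC against Cav1-KO hypoxia gave 1.99 (SE 0.24, Padj 4.35e-05) and, with the list as a term, -0.67 (SE 0.43, Padj 0.344). Cav1-KO against Control hypoxia gave -1.44 (SE 0.38, Padj 0.031), and -0.60 (SE 0.34, Padj 0.38) among listed libraries. That call stood in 3 of the 12 fits without 1 library (without female Control hypoxia replicate 1, male Control hypoxia replicate 3 or male Cav1-KO hypoxia replicate 2) and ended in 9 (-1.52 to -1.21). Where list status was equal, the difference of Cav1-RC from Cav1-KO normoxia was -0.39 (SE 0.11, unlisted, that is without female Cav1-RC normoxia replicate 1). Without replicate 2 instead it was -1.77, with the listed replicate 1 as the single female. Over all libraries Prkg1 was not called there. Male libraries of these groups, at 1.51 to 1.77 and 2.31 to 2.67 FPKM, did not overlap. The smooth muscle list (8 genes, led by Acta2) had a summed level of 535 to 1143 CPM in listed and of 490 to 929 in unlisted libraries, and its median difference between them was 0.22. Its part in Prkg1 was not tested. Cstf2t overlaps the span of Prkg1 on the opposite strand at a median of 10.6 FPKM, above Prkg1 itself. Whether it meets an exon of Prkg1 was not tested either.

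**Figure D4:**
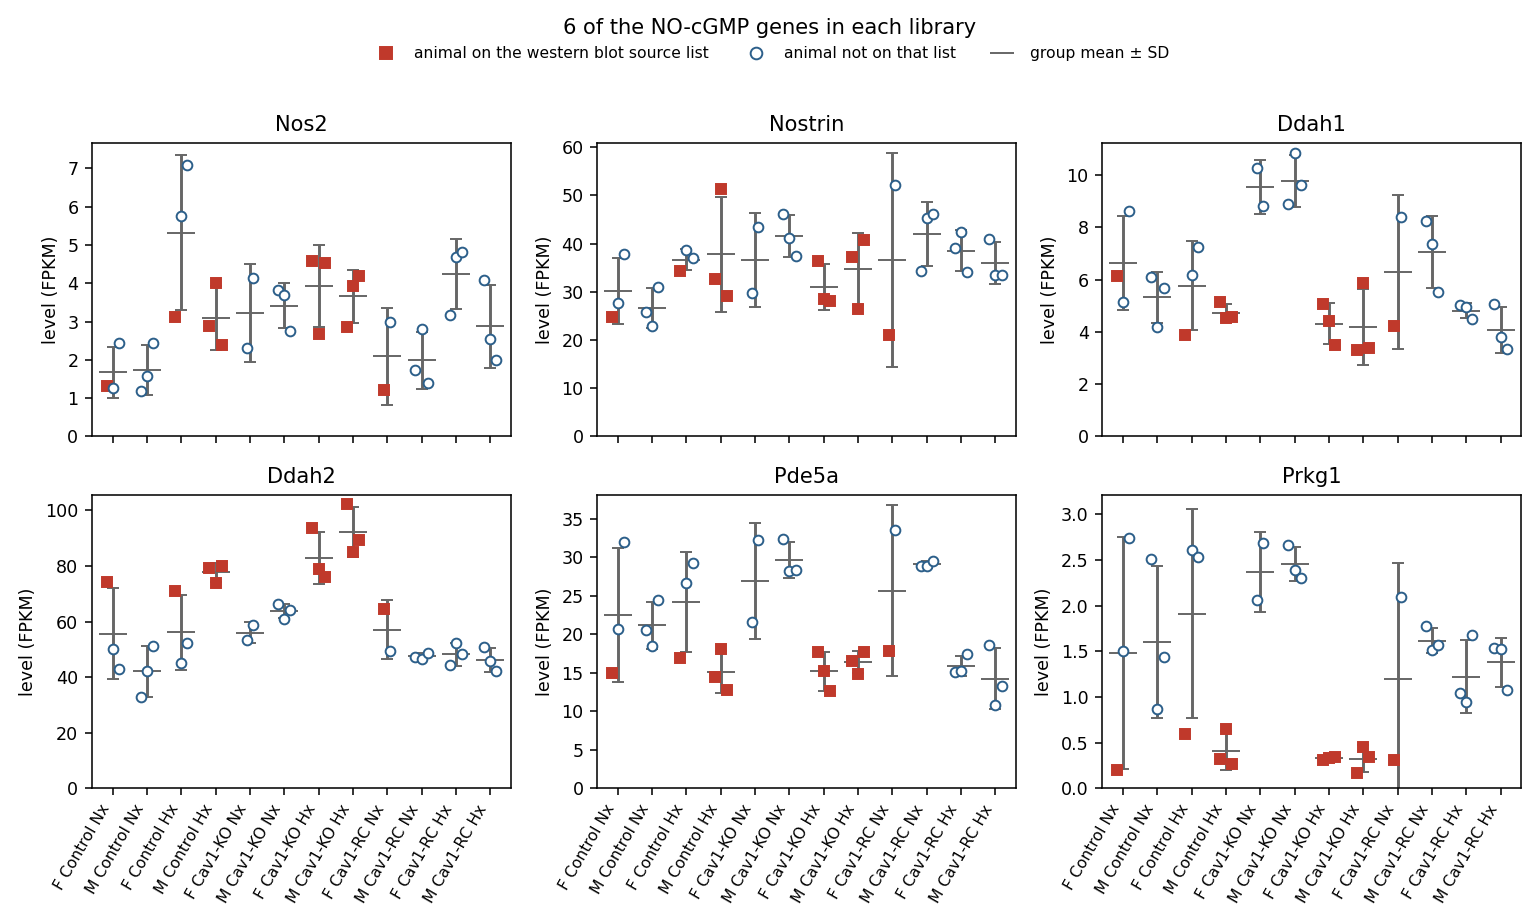
Levels (FPKM, linear axes from 0) of Nos2, Nostrin, Ddah1, Ddah2, Pde5a and Prkg1 in each of the 34 libraries by group (F, M: female, male; Nx, Hx: normoxia, hypoxia), with group mean and SD; filled squares are listed mice and open circles the others. All listed libraries lie below all unlisted ones for Prkg1, and the 5 normoxic Cav1-KO libraries lie above all normoxic Control libraries for Ddah1.

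Counted over the 9 genes, 8 were tested in Cav1-KO against Control normoxia and 3 were higher (Nos3, Nos2 and Ddah1), with a median of 0.55 against -0.03 over all genes, of which 13.2% were called. In Control, hypoxia raised 2 of 9 (Nos3 and Nos2), while 1.44% of all genes were called. In Cav1-RC, hypoxia lowered 1 of 9 (Pde5a), with 2.17% of all genes called. In Cav1-KO, hypoxia raised 3 of 8 (Nos3, Nosip and Ddah2) and lowered 3 (Ddah1, Pde5a and Prkg1), where 61.7% of all genes were called. Cav1-RC against Cav1-KO hypoxia gave 2 of 9 higher (Nos1 and Prkg1) and 2 lower (Nos3 and Ddah2), with 52.6% of all genes called. These last 2 comparisons are those in which list status coincides with condition. Cav1-KO against Control hypoxia gave 2 higher (Nos3 and Ddah2) and 1 lower (Prkg1) of 9, with 14.7% of all genes called. Cav1-RC against Control gave 1 higher in normoxia (Nos3; 3.33% of all genes) and 1 lower in hypoxia (Ddah2; 9.06%). Cav1-RC against Cav1-KO normoxia gave none of 9 by edgeR, with 4 at an unadjusted p under 0.05 and 1 by DESeq2, and 9.38% of all genes called. Comparisons that share a group, such as both with Control, are not independent.

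**Figure D5:**
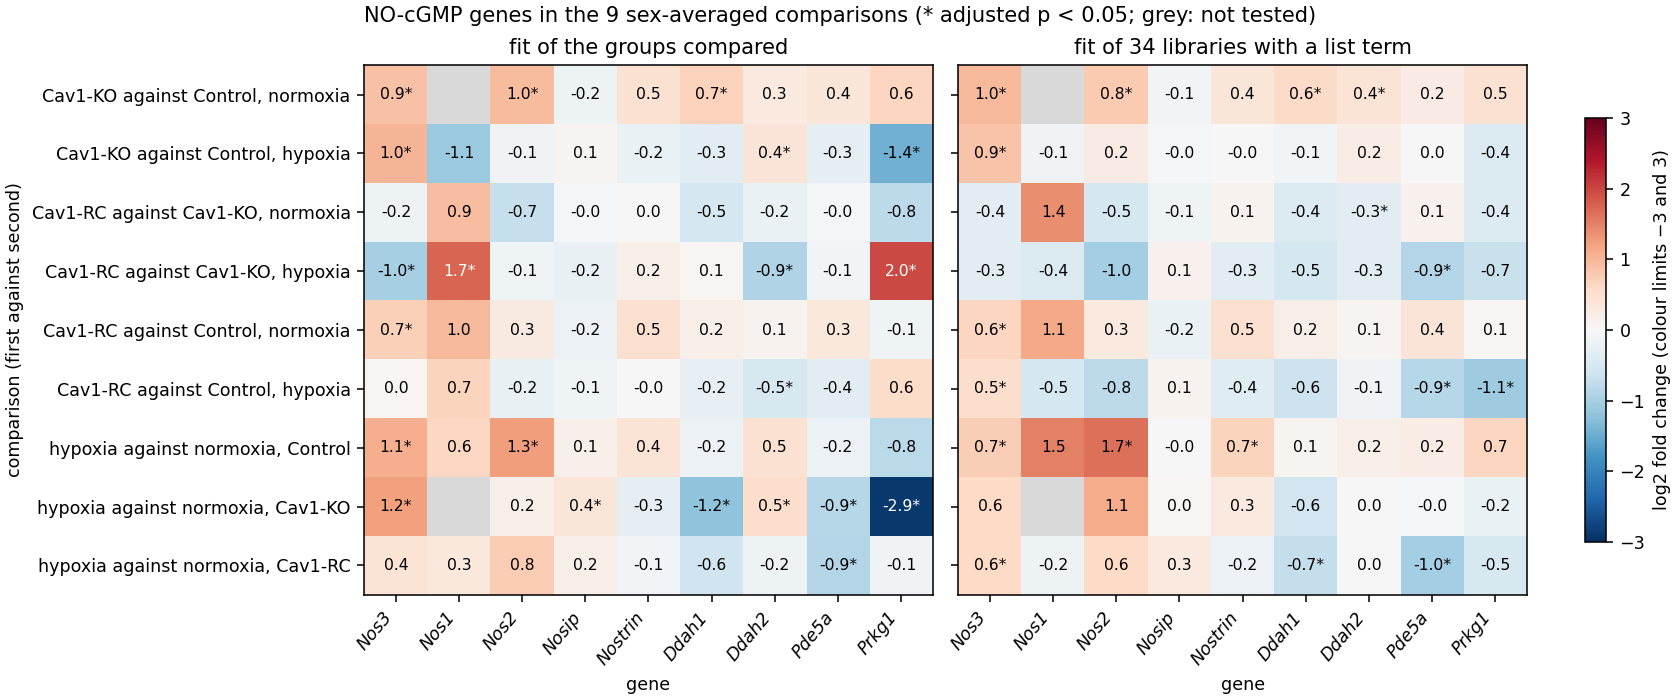
Log2 fold change of each NO gene (x axis) in the 9 sex-averaged comparisons (y axis), by the fit of the groups compared (left) and of all 34 libraries with the list as a term (right), with red for higher, blue for lower, gray for not tested and an asterisk for Padj under 0.05. On the left, Nos3 was higher in Cav1-KO than in Control at both oxygen levels (0.87 and 1.03), and Prkg1 was lowest in hypoxic against normoxic Cav1-KO lungs (-2.90), where the right panel has -0.20.

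The sexes were also compared one at a time. In males, Cav1-KO normoxia against Control gave 5 of 8 higher (Nos3, Nostrin, Ddah1, Ddah2 and Pde5a; 11.4% of all genes). In females of these groups edgeR called none, with 2 at an unadjusted p under 0.05 and 1 by DESeq2 (0.122% of all genes). The female minus male difference of this effect was called for none of 8 by edgeR or DESeq2 (0 at an unadjusted p under 0.05; 0% of all genes). In hypoxia Cav1-KO against Control gave none in females (4 at an unadjusted p under 0.05, 2 by DESeq2; 0.808% of all genes) and none in males (1 and 1; 1.6%). The female minus male difference was again called for none (2 at an unadjusted p under 0.05, none by DESeq2; 0% of all genes). Without female Control hypoxia replicate 1, the single listed library of its group, 7 genes were called in females. List status and genotype coincide in that fit, and within groups 45.8% of all genes differed by list status. The share of all genes called without that library is not reported here. Its removal also left the female minus male difference called for Pde5a (-1.01, Padj 0.00591), Ddah2 (0.51, Padj 0.0368), Nos3 (0.93, Padj 0.00684) and Prkg1 (-2.61, Padj 0.0051). There the Control libraries left were unlisted in females and listed in males. Cav1-RC against Cav1-KO normoxia gave 3 of 8 lower in males (Ddah1, Ddah2 and Prkg1; 12.5% of all genes), with 2 of the 3 male Cav1-RC libraries against their sex label, and none in females (0 at an unadjusted p under 0.05, none by DESeq2; 0.1%). Cav1-RC against Cav1-KO hypoxia gave Prkg1 higher and Nos3 and Ddah2 lower in females (20.8% of all genes) and in males (44.5%). Cav1-RC against Control normoxia gave none in females (1 at an unadjusted p under 0.05, none by DESeq2; 0.137%) and none in males (3 and 2; 4.2%). In hypoxia this comparison gave none in females (1 and none; 0.849%), and Prkg1 higher and Ddah2 lower in males (37% of all genes), where all Control libraries were listed.

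For oxygen within 1 sex and genotype, female Control gave none (2 at an unadjusted p under 0.05, 1 by DESeq2; 0.0175% of all genes) and male Control gave Nos3 and Ddah2 higher and Prkg1 lower (16% of all genes). Male Control hypoxia was listed throughout and male Control normoxia not at all. Female Cav1-KO gave 5 of 8 called (38.2% of all genes) and male Cav1-KO 6 of 8 (55.1%). Female Cav1-RC gave none (2 at an unadjusted p under 0.05, none by DESeq2; 0.0285%). Male Cav1-RC, unlisted at both oxygen levels, gave Nos3 higher (0.71, SE 0.12, Padj 0.0127) and Ddah1 (-0.78, SE 0.18, Padj 0.0345) and Pde5a (-1.02, SE 0.17, Padj 0.0112) lower, with 7.89% of all genes called. Replicates 1 and 2 of male Cav1-RC normoxia are among the libraries against their sex label.

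Whether the response to hypoxia differed between genotypes was tested as an interaction. The response in Cav1-KO minus that in Control was called and negative for 4 of 9 genes (Nos2, Nostrin, Ddah1 and Prkg1), with 20.2% of all genes called. The response in Cav1-RC minus that in Cav1-KO was called for 3 of 9 (Nos3 and Ddah2 negative, Prkg1 positive), with 42.8% of all genes. With the list as a term none of these 7 was called. For Nos3 the response in Cav1-KO and in Control differed by 0.13 (SE 0.20, Padj 0.639).

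Of the wider pathway, 49 further genes were taken as a list of guanylyl cyclases, phosphodiesterases, kinase targets, synthase regulators, arginine supply, tetrahydrobiopterin (the synthase cofactor) and NO removal. In Cav1-KO against Control normoxia 3 of 45 tested were higher and 2 lower, with a median of 0.01 against -0.03 over all genes, of which 13.2% were called. It was 5 higher and 2 lower with the list as a term, beside 3001 of 18540 genes called. The cation channel gene Trpc6 (0.59, SE 0.12, Padj 0.0103) and the phosphodiesterases Pde10a (1.31, SE 0.29, Padj 0.0138) and Pde3a (0.76, SE 0.18, Padj 0.0182) were higher. Cav1 and Pts, which encodes an enzyme of tetrahydrobiopterin synthesis (-1.05, SE 0.12, Padj 0.000384), were lower. In Cav1-RC against Cav1-KO normoxia 5 of 46 were higher and 2 lower, beside 9.38% of all genes. With the list as a term the numbers were the same, beside 1162 of 18085 genes called. Pts (0.78, SE 0.13, Padj 0.00458) was higher there, as were Gch1, the first enzyme of the same synthesis (0.39, SE 0.10, Padj 0.0382), and the synthase chaperone Hsp90aa1 (0.68, SE 0.14, Padj 0.0124). Rgs2, a target of the cGMP kinase (-0.77, SE 0.14, Padj 0.00734), and Pde1c (-1.59, SE 0.27, Padj 0.00588) were lower. Cav1-RC against Control normoxia gave 2 of 46 higher (Hsp90ab1, 0.64, and Hsp90aa1, 0.65) and 2 lower (Cav1 and Pde1c, -1.58). Of all genes 3.33% were called there. With the list as a term 9 were higher and 3 lower, beside 2299 of 18545 genes called.

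Hypoxia changed 0 of 46 of these genes in Control by edgeR, with 7 at an unadjusted p under 0.05 and 1.44% of all genes called. The list term gave 6 higher and 1 lower, beside 3700 of 18561 genes called. In Cav1-RC hypoxia changed 3 of 46 (2.17% of all genes; 5 with the list as a term), where Ass1, which renews arginine, was higher (0.94, SE 0.19, Padj 0.0262) and Pde3a (-0.74, SE 0.13, Padj 0.0166) and Trpc6 (-0.55, SE 0.10, Padj 0.0186) were lower. In Cav1-KO, where list status and oxygen level coincide, 14 of 45 were higher in hypoxia and 13 lower, beside 61.7% of all genes. Among the 14 were Gch1 (0.82, SE 0.10, Padj 3.13e-05) and Pts (0.52, SE 0.07, Padj 3.95e-05), and 5 of the 6 tetrahydrobiopterin genes were higher. The list term left 2 higher and none lower, and Gch1 was still called (0.79, Padj 0.0131) and Pts was not (-0.18, Padj 0.674). Dynll1, a light chain that binds Nos1, was higher too (0.64). The calmodulin gene Calm3 (-1.72, SE 0.09, Padj 9.73e-08) and the Nos1 adaptor Nos1ap (-2.51) were lower, and with the list as a term they were at -0.26 and 0.29, not called. In Cav1-KO against Control hypoxia 3 of 46 were higher and 5 lower (14.7% of all genes). With the list as a term the numbers were 5 and 5, beside 3257 of 18742 genes called. Hba-a1, whose hemoglobin chain takes up NO, was higher (2.75, SE 0.59, Padj 0.0158), as were Hsp90ab1 (0.77) and Gch1 (0.47), while Calm3 (-1.06), the cyclase subunit Gucy1a2 (-1.57) and Cav1 were lower. With the list as a term Gucy1a2 was not called (-0.67, Padj 0.3), and the others still were, Calm3 at -0.48 (Padj 0.0337). In Cav1-RC against Cav1-KO hypoxia, where list status again coincides with the groups, 9 of 45 were higher, among them Calm3 (1.62) and Nos1ap (2.28), and 13 lower, among them Dynll1 (-0.64), Trpc6 (-0.68) and Hsp90ab1 (-0.82), beside 52.6% of all genes. The list term left 1 higher and 4 lower, beside 1587 of 18237 genes called. Trpc6 (-0.81) and Hsp90ab1 (-0.88) were still called, and Calm3 (0.19), Nos1ap (-0.48) and Dynll1 (0.04) were not. In Cav1-RC against Control hypoxia 1 of 46 was higher (Zdhhc21, a palmitoyl transferase of the endothelial synthase, 0.50) and 3 lower (Cav1, Trpc6, -0.50, and the natriuretic peptide receptor Npr2, -0.36), beside 9.06% of all genes. The list term left none higher and 2 lower, beside 1404 of 17929 genes called, and Zdhhc21 (-0.02) and Npr2 (-0.10) were not called. Between listed and unlisted libraries within groups 7 of 46 were higher in the listed ones, led by Dynll1 (0.68), Pts (0.73) and Npr2 (0.39), and 14 lower, led by Calm3 (-1.44), the arginine transporter Slc7a1 (-0.73) and Nos1ap (-2.77), beside 45.8% of all genes.

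Markers of the cell types in whole lung were read beside these genes, and no defining marker was at 0 in every library. Their counts stand beside 13.2% of all genes called in Cav1-KO against Control normoxia, 52.6% in Cav1-RC against Cav1-KO hypoxia, 61.7% with hypoxia in Cav1-KO and 45.8% between listed and unlisted libraries. With the list as a term, 3001 of 18540 genes were called in the first of these and 1587 of 18237 in the second. Endothelial markers had a median of 0.25 in Cav1-KO against Control normoxia (4 of 15 higher, 1 lower), -0.28 in Cav1-RC against Cav1-KO hypoxia (4 higher, 6 lower) and 0.02 between listed and unlisted libraries (4 higher, 6 lower). Smooth muscle markers had 4 of 8 lower in Cav1-KO against Control normoxia (median -0.52), and also 4 with the list as a term. In Cav1-RC against Control hypoxia, where Pde5a and Ddah2 differences are given above, 4 of 8 were lower too (median -0.57, 8 at an unadjusted p under 0.05, beside 9.06% of all genes; also 4 with the list as a term). With hypoxia in Cav1-KO 4 were higher and 1 lower (median 0.30), none with the list as a term. Pericyte markers, led by Higd1b, ran at 313 to 546 CPM summed, with a median of -0.13 between listed and unlisted libraries and 1 of 6 called in each direction. Neutrophil markers (6 genes, led by S100a9) ran at 35.7 to 478 CPM, and 3 of 6 were higher in hypoxia in each genotype, beside shares of all genes of 1.44% (Control), 61.7% (Cav1-KO) and 2.17% (Cav1-RC), and with the list as a term 1, 0 and 3 of 6 for Control, Cav1-KO and Cav1-RC, respectively. In Cav1-RC against Control 4 of 6 were higher in normoxia (median 1.02; 3.33% of all genes) and in hypoxia (1.54; 9.06%). In Cav1-RC against Cav1-KO hypoxia 5 of 6 were. With the list as a term these were 2, 3 and 3 of 6, beside 2299 of 18545, 1404 of 17929 and 1587 of 18237 genes called. Macrophage markers (led by Chil3) had 4 of 8 higher and 1 lower in Cav1-RC against Cav1-KO hypoxia (median 0.57) and 4 of 8 lower with hypoxia in Cav1-KO (median -0.61), where list status coincides, and with the list as a term 1 was lower in the first and none was called in the second. Genes of type 2 immune responses, led by Retnla, ran at 22.6 to 2943 CPM summed. Cardiac muscle markers (led by Myl7) ran at 111 to 553 CPM in listed and at 524 to 1313 in unlisted libraries (median -1.75, 5 of 6 lower). In Cav1-RC against Control hypoxia 4 of 6 were higher (median 1.09), and 0 with the list as a term (0.11). In Cav1-RC against Cav1-KO hypoxia 3 were higher (1.14), while with the list as a term 0 were higher and 1 lower (-1.10). Ciliated cell markers (led by Foxj1) had a median of 1.02 (5 of 6 higher) between listed and unlisted libraries. In Cav1-KO against Control normoxia their median was -1.63 (6 of 6 lower, also with the list as a term). All 6 were higher in Cav1-RC against Cav1-KO normoxia (median 1.22; also 6 with the list as a term; 9.38% of all genes) and with hypoxia in Cav1-KO (median 1.52; 0 with the list as a term). Alveolar type 2 markers (led by Sftpc) had a median of -0.72 (5 of 6 lower) between listed and unlisted libraries. They had 4 of 6 lower in Cav1-KO against Control hypoxia (median -0.72, beside 14.7% of all genes; also 4 with the list as a term), 5 of 6 higher in Cav1-RC against Cav1-KO hypoxia (0.73) and 5 of 6 lower with hypoxia in Cav1-KO (-0.99), the last 2 with none called under the list term. Neuronal markers, of which Uchl1 was the most abundant at 0.782 to 8.59 FPKM, summed to 3.00 to 18.1 CPM, with none of 4 tested called between listed and unlisted libraries. In Cav1-KO against Control normoxia 2 of 3 were lower (median -0.94), and in Cav1-RC against Cav1-KO hypoxia, where Nos1 was called, 1 of 3 was higher (median 0.56). The part of these cell types in the differences of the NO genes was not tested.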

How the data were processed

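Poly(A) RNA of whole mouse lungs was sequenced as directional paired-end libraries. Per the labels and the methods of the study, the authors mapped reads to mm10 with HISAT2 2.0.5 and counted them per gene with featureCounts 1.5.0-p3 at its defaults, which ignore strand. The deposited count table holds these raw counts and the deposited FPKM values were made by the authors from them. Within a library 1 factor ties FPKM to counts over gene length, equal to its median-of-ratios size factor, which puts FPKM at 0.941 to 1.14 times a scaling by library total. Groups came from the labels. One library labelled as uncertain was in no comparison. Here the counts were tested with edgeR 4.0.16 in R 4.3.3 (TMM scaling, filterByExpr on the groups compared, quasi-likelihood F test, Benjamini-Hochberg over all genes tested, threshold 0.05), and SE is the absolute log2 fold change over the root of F. The 9 sex-averaged comparisons are means of the female and male fold changes. FPKM served for levels and log2 CPM (prior count 2) for Nos3 against endothelial markers and for likeness to Nos3. DESeq2 1.42.0, limma 3.58.1 on log2(FPKM + 1) or log2(FPKM + 0.1), no filter, a replicate block, a list term and leaving out each library were alternatives. The fit of listed against unlisted libraries was chosen after seeing the data. The statistics were tested on simulated data. Sex labels were checked with Xist (100 CPM or more in a library labelled male) and 4 Y genes (over 5% of the male mean in one labelled female).

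Totals ran from 12425535 to 33343006 counts per library. A count of 0 allows up to 3 counts, for counting error only. Named were the 9 genes, Cav1, in each sex-averaged comparison up to 3 pathway genes per direction with the smallest Padj, the 5 genes most correlated with Nos3, and each marker list's counts, median and most abundant gene. The genes and lists were chosen with earlier results of these data known. Nothing says more than that libraries of a group came from separate mice. The closest replicates differed beyond counting noise (chi-square per degree of freedom 4.68 or more in 32 pairs). Promoters are RefSeq's on GRCm38, used for the genes with an entry. Some results, 1 further gene among them, are not reported here.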

Additional observations from a re-analysis of the deposited data

Results flagged for a closer look

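Of the 4 tests of whether an effect differed between sexes or genotypes, those on the response to hypoxia called 7 differences. The response in Cav1-KO was below that in Control for Nos2 (-1.08, SE 0.35, Padj 0.0389), Nostrin (-0.67, SE 0.22, Padj 0.0402), Ddah1 (-1.03, SE 0.25, Padj 0.013) and Prkg1 (-2.10, SE 0.66, Padj 0.0341). Ddah1 was called in each of the 23 fits without 1 library, while Nostrin was lost in 13 and Nos2 and Prkg1 in 12 each. The response in Cav1-RC was below that in Cav1-KO for Nos3 (-0.82, SE 0.17, Padj 0.00108) and Ddah2 (-0.69, SE 0.12, Padj 0.00045), and above it for Prkg1 (2.79, SE 0.45, Padj 0.000279). With western blot list status as a term the values, in the same order, were -0.55, -0.37, -0.66, -0.85, 0.01, 0.01 and -0.27, with Padj from 0.12 to 1, and none was called. In Cav1-KO the list and hypoxia coincide, so their parts cannot be told apart.

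The library whose sex, oxygen level and genotype the labels give as uncertain held 23.8 FPKM of Nos3 and 110.9 of Ddah2. The highest Control values were 16.7 and 80.0. The labels name female, Cav1-KO and normoxia as possible, and Cav1-KO libraries held 9.37 to 11.1 FPKM of Nos3 in normoxia and 21.7 to 29.3 in hypoxia, while the highest Ddah2 of any assigned library was 102. Cav1 was at 1.34 FPKM in the uncertain library. Its mouse is on the western blot list, there as a normoxic female Cav1-KO, and it entered no comparison.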

How the results depend on the processing

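Values are numbers of NO genes called, with those over all libraries by edgeR in brackets, and causes were not tested. A count is said to have moved where it changed by over 1.5 times, or to or from 0. With the list as a term, 21 of 31 counts moved: Cav1-KO against Control hypoxia 1 [3], Cav1-RC against Cav1-KO hypoxia 1 [4] and normoxia 1 [0], Cav1-RC against Control hypoxia 3 [1], hypoxia in Cav1-KO 0 [6] and in Cav1-RC 3 [1], and the interactions 0 [4] and 0 [3]. Of all genes the list term called 3257 of 18742, 1587 of 18237, 1162 of 18085 and 1404 of 17929 in the first 4 of these, in that order. By sex it gave, for Cav1-KO against Control, 1 in hypoxic females, normoxic females and hypoxic males [0 each]. For Cav1-RC against Cav1-KO it gave 0 in hypoxic females and 1 in hypoxic males [3 each] and 0 in normoxic males [3], and for Cav1-RC against Control 3 in hypoxic females [0], 1 in normoxic females [0] and 0 in hypoxic males [2]. For hypoxia it gave 0 in female [5] and male Cav1-KO [6], 1 in female Cav1-RC [0] and 2 in female Control [0]. Without the libraries against their sex label the counts were 1 for Cav1-KO against Control hypoxia [3], 0 for Cav1-RC against Control normoxia [1], and for hypoxia 0 in Cav1-RC [1] and 1 in Control [2]. Listed libraries alone gave 1 for Cav1-KO against Control hypoxia. Unlisted ones alone gave 3 for Cav1-RC against Cav1-KO normoxia and 3 for hypoxia in Cav1-RC, and unlisted females 0 for Cav1-RC against Control hypoxia.

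Without the low-count filter the counts were 3 for Cav1-RC against Cav1-KO normoxia, 3 for hypoxia in Cav1-RC and 5 for Cav1-RC minus Cav1-KO. By sex they were 2 and 1 for Cav1-KO against Control in hypoxic and normoxic females and 1 in hypoxic males, 5 for Cav1-RC against Cav1-KO in normoxic males, 2 for Cav1-RC against Control in normoxic males and 5 for hypoxia in male Control. DESeq2's test gave 1 for Cav1-RC against Cav1-KO normoxia, 2, 1 and 1 for Cav1-KO against Control in hypoxic females, normoxic females and hypoxic males, 2 for Cav1-RC against Control in normoxic males, and 1 and 5 for hypoxia in female and male Control. One fit over all libraries gave 4, 1, 1 and 3 for Cav1-KO against Control in hypoxic females, normoxic females, hypoxic males and normoxic males, 0 for Cav1-RC against Cav1-KO in normoxic males, 1 and 1 for Cav1-RC against Control in normoxic females and hypoxic males, and 1 and 0 for hypoxia in female Control and male Cav1-RC. DESeq2's size factors gave 31 of 31 counts equal to those of TMM.

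Requiring a log2 fold change of 1 gave 0 for Cav1-KO against Control normoxia, 2 for Cav1-RC against Cav1-KO hypoxia, 0 for Cav1-RC against Control at either oxygen level, and 3 and 0 for hypoxia in Cav1-KO and Cav1-RC. By sex it gave 0 for Cav1-KO against Control and 0 for Cav1-RC against Cav1-KO in normoxic males, 1 for Cav1-RC against Control in hypoxic males, and 3, 3 and 1 for hypoxia in female Cav1-KO, male Cav1-KO and male Cav1-RC. limma on log2(FPKM + 1) gave 0 for Cav1-RC against Control normoxia and 1 for hypoxia in Control, and 0 and 1 with 0.1 as well. Unfiltered, limma gave 1 for Cav1-KO against Control hypoxia, 0 for Cav1-RC against Control at either oxygen level, and 0 and 1 for hypoxia in Cav1-RC and Control.

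Replicate numbers do not pair these mice: over 177 same-numbered pairs of libraries the median correlation of deviations was 0.011 (-0.43 to 0.56), 32 pairs exceeded 0.1, and 14 of 34 libraries correlated best with their own number. The replicate block moved 6 of 31 counts, to 1 for Cav1-RC against Cav1-KO normoxia, 0 for Cav1-RC against Control normoxia, 0 for hypoxia in Cav1-RC, 1 among normoxic females for Cav1-KO against Control, and 5 for Cav1-RC against Cav1-KO and 3 for Cav1-RC against Control in normoxic males.

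Leaving out 1 library gave 1 to 6 for Cav1-KO against Control hypoxia and 2 to 5 for normoxia, 4 to 5 and 0 to 5 for Cav1-RC against Cav1-KO, 0 to 1 for Cav1-RC against Control at either oxygen level, and 6 to 7, 0 to 3 and 1 to 2 for hypoxia in Cav1-KO, Cav1-RC and Control. The sex differences were 0 to 4 in hypoxia and 0 to 0 in normoxia, and the interactions 1 to 6 and 3 to 6. By sex, in the order hypoxic females, normoxic females, hypoxic males, normoxic males, it gave 0 to 7, 0 to 1, 0 to 1 and 1 to 7 for Cav1-KO against Control, 3 to 3, 0 to 4, 3 to 5 and 2 to 3 for Cav1-RC against Cav1-KO, and 0 to 0, 0 to 0, 2 to 4 and 0 to 2 for Cav1-RC against Control. For hypoxia it gave 3 to 6, 0 to 0 and 0 to 0 in female Cav1-KO, Cav1-RC and Control and 6 to 6, 1 to 3 and 1 to 5 in male ones. A lone library left in a female group was taken to vary like the others.

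Nos3 relative to 15 endothelial markers, without 1 library, ran from 0.67 to 0.79 and 0.93 to 1.19 for Cav1-KO against Control normoxia and hypoxia, from -0.35 to 0.21 and -0.91 to -0.79 for Cav1-RC against Cav1-KO, from 0.39 to 0.95 and 0.09 to 0.34 for Cav1-RC against Control, and from 0.78 to 1.03, 1.18 to 1.30 and 0.17 to 0.73 for hypoxia in Control, Cav1-KO and Cav1-RC. With 3 markers it was 0.44, 0.54 and 0.80 for Cav1-KO and Cav1-RC against Control normoxia and hypoxia in Control, none called. Among unlisted libraries hypoxia in Cav1-RC gave 0.73, called, and among unlisted females hypoxia in Control gave 0.49, where the exact permutation p cannot fall below 0.333. Cav1-RC against Control normoxia, 0.67, was not called without female Control normoxia replicate 1 (0.72), 2 (0.68) or 3 (0.60) or female Cav1-RC normoxia replicate 1 (0.39).

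Of single fold changes, 6 turned direction where the value was called in either fit. Values called in neither fit that changed sign are not among them. With the list as a term Nos1 (-0.42) and Prkg1 (-0.67) did so in Cav1-RC against Cav1-KO hypoxia and Prkg1 (-1.08) in Cav1-RC against Control hypoxia. Ddah2 did so in Cav1-RC against Control hypoxia among unlisted females (0.020). Without female Cav1-RC normoxia replicate 2, Nostrin did so in Cav1-RC against Cav1-KO normoxia (-0.39, against up to 0.26 without replicate 1) and Prkg1 for hypoxia in Cav1-RC (0.89, against -0.49 without replicate 1). Of 79 fold changes, 57 kept direction and side of the threshold with the list as a term, 77 with DESeq2's test and 76 with the replicate block. Counts of at most 20 limit Nos1.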
